A study of Homo sapiens with 32 samples.

Results

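The genes described here are 49 genes of cell adhesion to the extracellular matrix, chosen by name: 9 integrin alpha subunits, 7 integrin beta subunits, 8 laminin chains, 12 collagen chains, 7 matrix glycoproteins and proteoglycans, 2 syndecans and 4 proteins of the adhesion plaque. All 49 were found among the 48804 genes of the deposited count table. They were chosen with earlier results of these data known, so the shares of them called are descriptions and not tests. RNA was sequenced from MDA-MB-468, a human triple-negative breast cancer line that carries little estrogen, progesterone and HER2 receptor and much EGFR. The cells had been grown in flasks with PBS (control), with salinomycin (Sal, an ionophore of monovalent cations) at 0.5 µM, with dasatinib (Das, an inhibitor of SRC and ABL family tyrosine kinases) at 15 µM, or with both drugs at those doses (S+D), and were collected after 24 or 72 h. There were 8 groups of 4 libraries, 32 in all, which the submitters describe as biological replicates, and every library is of this 1 line, so a p-value measures the spread between cultures of the line. The comparisons ask which adhesion genes each drug and the pair moved, at which time, and whether the pair did more than the sum of the single drugs.

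Integrins are receptors made of 1 alpha and 1 beta subunit that span the membrane and bind matrix proteins outside the cell. Their beta tails recruit talin (TLN1), vinculin (VCL), paxillin (PXN) and focal adhesion kinase (PTK2), which tie the receptor to actin and work together with SRC kinases. In epithelium, alpha 6 beta 4 (ITGA6, ITGB4) anchors cells through hemidesmosomes to laminin-332, whose chains include those encoded by LAMA3 and LAMB3; alpha 5 beta 1 binds fibronectin (FN1), alpha 9 beta 1 binds tenascin-C (TNC), and alpha V beta 6 binds fibronectin and activates latent TGF-beta.

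Library totals ran from 25692561 to 42769687 counts. One library of every group carried no replicate number in its label, and these 8 unnumbered libraries stood apart from the numbered ones: at 24 h the deviations of 2 unnumbered libraries from their group means correlated across genes at 0.588 to 0.666, against -0.524 to 0.353 for libraries with different labels, and at 72 h at 0.522 to 0.611. Counts for replicates 1, 2 and 3 alone are therefore given beside those of all libraries, and libraries are listed in the order replicate 1, 2, 3 and unnumbered. The epithelial markers EPCAM (206 to 393 counts scaled to the library total, CPM) and CDH1 (195 to 361 CPM) were high in every library. So was EGFR (2793 to 5923 CPM). Of the receptors low in triple-negative cells only PGR was near 0, with 0 to 3 counts. ESR1 had 139 to 353 counts (3.64 to 12.0 CPM) and ERBB2 1603 to 7109 (56.8 to 192 CPM). The fibroblast markers COL1A2, COL3A1, DCN, LUM and THY1 and the leukocyte markers PTPRC and CD3E had 0 to 5 counts in any library. The remaining fibroblast markers reached higher counts, FAP 7 to 99, PDGFRB 2 to 79 and PDGFRA 0 to 41. The whole fibroblast list summed to 2.94 to 3.68 CPM in the 72 h controls. No treated library at 72 h exceeded 2.62 CPM, the highest value under Sal. The part of the fibroblast list in the collagen results was not tested. The summed level of the whole leukocyte list, of which CD14 gave most, was 26.7 to 34.2 CPM in the 72 h controls, 6.02 to 18.0 under Sal, 2.70 to 4.73 under Das and 3.85 to 5.64 under S+D, and its part in the integrin results was not tested. The endothelial list, here mostly KDR, summed to 5.60 to 8.02 CPM in the 72 h controls and 0.352 to 0.759 under S+D, and its part in the laminin results was not tested either. In bulk RNA, fewer cells of a type and less RNA per cell cannot be told apart.

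In control cells at 72 h, levels per kilobase of exon spanned the whole range from abundant to near absent. The syndecan SDC1, a heparan sulfate proteoglycan of the cell surface, led at 176 CPM per kb, before TLN1 at 104, the basement membrane proteoglycan agrin (AGRN) at 82.1 and SDC4 at 48.3. Among integrins the order per kilobase was ITGB5 (29.2), ITGB4 (26.2), ITGB6 (23.9), ITGA6 (23.0), ITGB1 (17.5), ITGAV (16.4) and ITGA3 (14.3). The leading laminin chain was LAMB2 (32.4), followed by LAMA5 (21.4) and LAMC1 (17.1). At the other end ITGA1, COL6A1, COL6A2, COL5A1 and LAMA1 each lay at or below 0.00634 CPM per kb. Of the 49 genes, 41 passed the filter on low counts in the 24 h fit and 45 in the 72 h fit. ITGB3 shares 33.2% of its exon bases with another annotated gene, PXN 23.7% with PXN-AS1, COL18A1 18.5% with SLC19A1, ITGA1 13.2% with PELO and others, HSPG2 11.7% with LDLRAD2, VCL 11.1% with AP3M1, LAMA1 11.1% with other annotated genes and ITGA9 9.2% with ITGA9-AS1, so the values of these 8 are less certain; the other members share at most 5.3%.

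At 24 h the list moved mainly downward, with the fewest calls under Sal. A gene was called at a Benjamini-Hochberg adjusted p under 0.01 in edgeR's quasi-likelihood test, fitted on all genes of that time. Under Sal, 0 members were called higher (background: 4.55% of all genes tested) and 7 lower (background 2.23%), namely ITGB4, ITGB5, LAMA4, LAMB1, COL4A1, TNC and THBS1. At an unadjusted p under 0.05 in the same test the counts were 1 and 18, where 4594 of the 16357 genes tested passed in either direction. DESeq2 called 0 and 10, for which no background is given here. Under Das, 3 were higher (background 6.99%) and 10 lower (background 6.88%). Under S+D, 3 were higher (background 17.1%) and 17 lower (background 16.5%), so that 41.5% of the tested members were called lower. With the replicate number as a block, 12 members were called under Sal, all lower (background 8.71%), and 23 under Das, 6 higher (background 13.4%) and 17 lower (background 14.0%). At 24 h numbered libraries of different groups deviated together to the same degree whether their numbers matched (median correlation 0.218) or not (0.218), so the number shows no pairing beyond the split between numbered and unnumbered libraries. With replicates 1, 2 and 3 alone, 15 were called under Sal, of which LAMB2 (0.26, adjusted p 0.00797) and HSPG2 (0.49, adjusted p 0.00697) were higher (background 12.7%) and 13 lower (background 10.9%). The same libraries gave 26 under Das, 9 higher (background 20.6%) and 17 lower (background 18.7%), and 30 under S+D, 5 higher (background 28.7%) and 25 lower (background 29.4%). The median log2 fold change of the tested members was -0.33 under Sal, -0.23 under Das and -0.54 under S+D, while the median of all genes lay within 0.051 of 0 in each comparison. ITGB4, ITGB5, COL4A1 and TNC were called lower in all 3 treatments, and ITGA3, ITGA9, ITGB2, SDC1, PXN and VCL under Das and S+D but not under Sal. The calls of ITGB4 under Sal and COL4A1 under Das each passed in only 3 of 16 fits with 1 library left out, and under Sal ITGB5 was not called with only the groups compared, nor COL4A1 and TNC with all 32 libraries in 1 fit. All 3 treatments were set against the same 4 control libraries.

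At 72 h most of the tested members were called under Sal and under S+D. Under Sal, 5 were higher (background 26.3%) and 22 lower (background 26.8%), which is 48.9% of the tested members for the lower calls. Under Das, 4 were higher (background 10.5%) and 15 lower (background 9.36%, members 33.3%). Under S+D, 8 were higher (background 27.0%) and 23 lower (background 27.9%, members 51.1%). The share of members called lower was thus above the share of all genes in each treatment at 72 h. The share called higher was below it under Sal (11.1%) and S+D (17.8%) and near it under Das (8.89%). As the list was chosen with earlier results of these data known, these shares describe it and test nothing. The medians of the tested members were -0.63, -0.32 and -0.64 on the log2 scale. The 12 genes ITGA3, ITGA6, ITGA9, ITGB2, ITGB3, ITGB4, ITGB5, LAMA4, COL4A2, TNC, SDC1 and VCL were called lower in all 3 treatments, and ITGA1 and LAMB2 higher in all 3. ITGA5, ITGB6, ITGB8, LAMB1, COL4A6, FN1 and SDC4 were called lower under Sal and S+D and not under Das. Of these 7, ITGB6, ITGB8, LAMB1, COL4A6 and FN1 were also lower under S+D than under Das, whereas ITGA5 (-0.32, adjusted p 0.532) and SDC4 (-0.31, adjusted p 0.0709) did not pass that test, and Sal was not set against Das. The 72 h counts for replicates 1, 2 and 3 alone were 30 under Sal, 7 higher (background 27.8%) and 23 lower (background 29.6%), 20 under Das, 4 higher (background 11.2%) and 16 lower (background 11.5%), and 32 under S+D, 10 higher (background 28.4%) and 22 lower (background 29.5%).

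Large changes were fewer. Past an absolute log2 fold change of 1.5 as well, 0 members were called under Sal at 24 h (background 0.721% of all genes in either direction), 3 under Das (background 2.49%) and 4 under S+D (background 6.06%). At 72 h the counts were 14 under Sal (background 18.7%), 7 under Das (background 5.02%) and 18 under S+D (background 20.2%). TNC and ITGA9 each passed both cutoffs in 5 of the 6 comparisons, missing only Sal at 24 h.

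**Figure D1:**
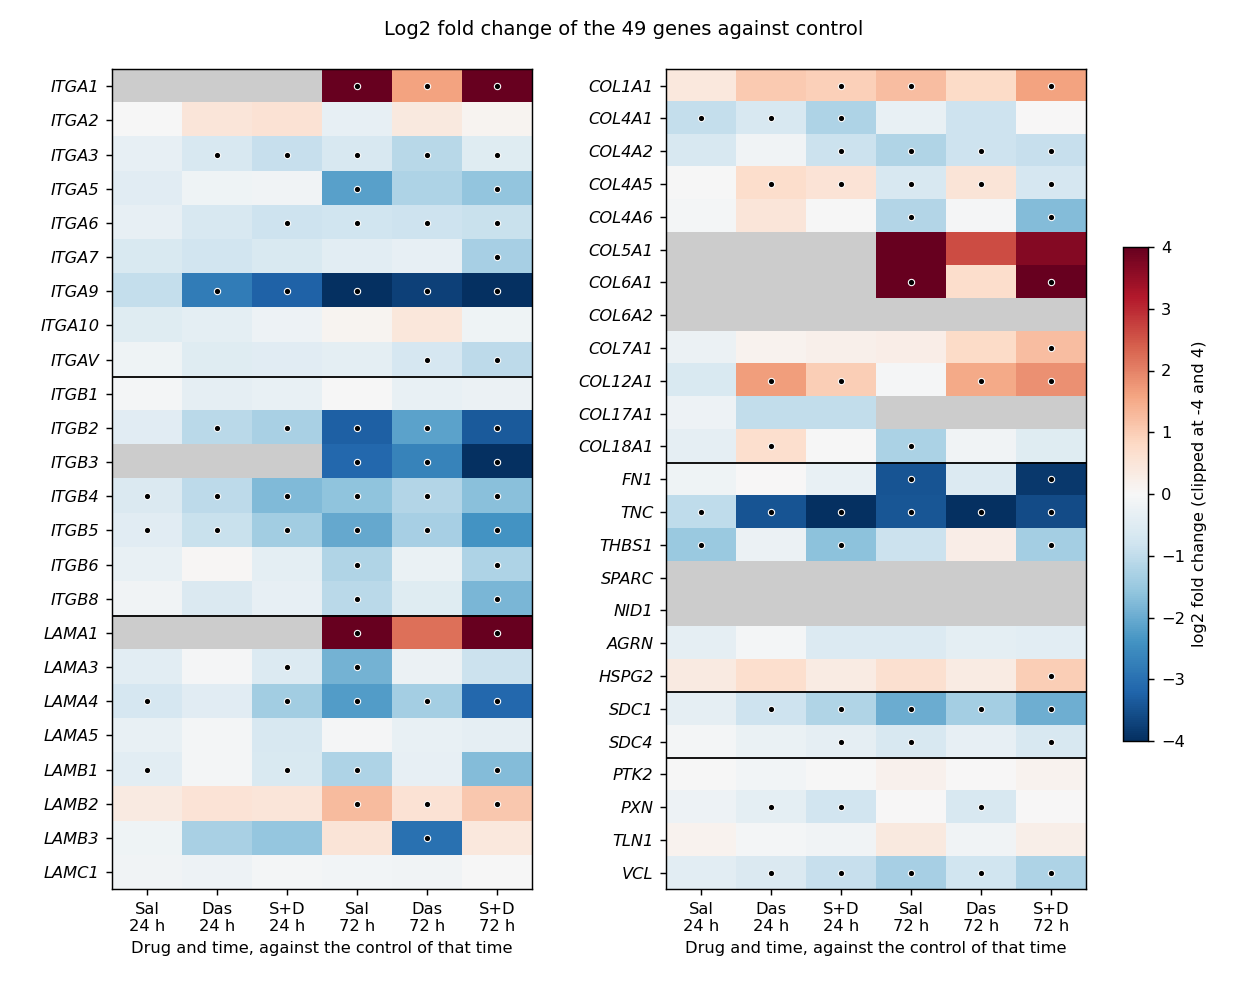
Log2 fold change against the control of the same time for the 49 genes (rows, grouped by role) in 6 comparisons (columns), with colours clipped at 4 on either side of 0; a black dot marks an adjusted p under 0.01 and grey a gene not tested. Beta integrins are mostly blue at 72 h under Sal and S+D, ITGB1 being the palest under Sal, and the strong red cells at 72 h are ITGA1, LAMA1, COL6A1 and COL5A1, the last without a dot.

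**Figure D2:**
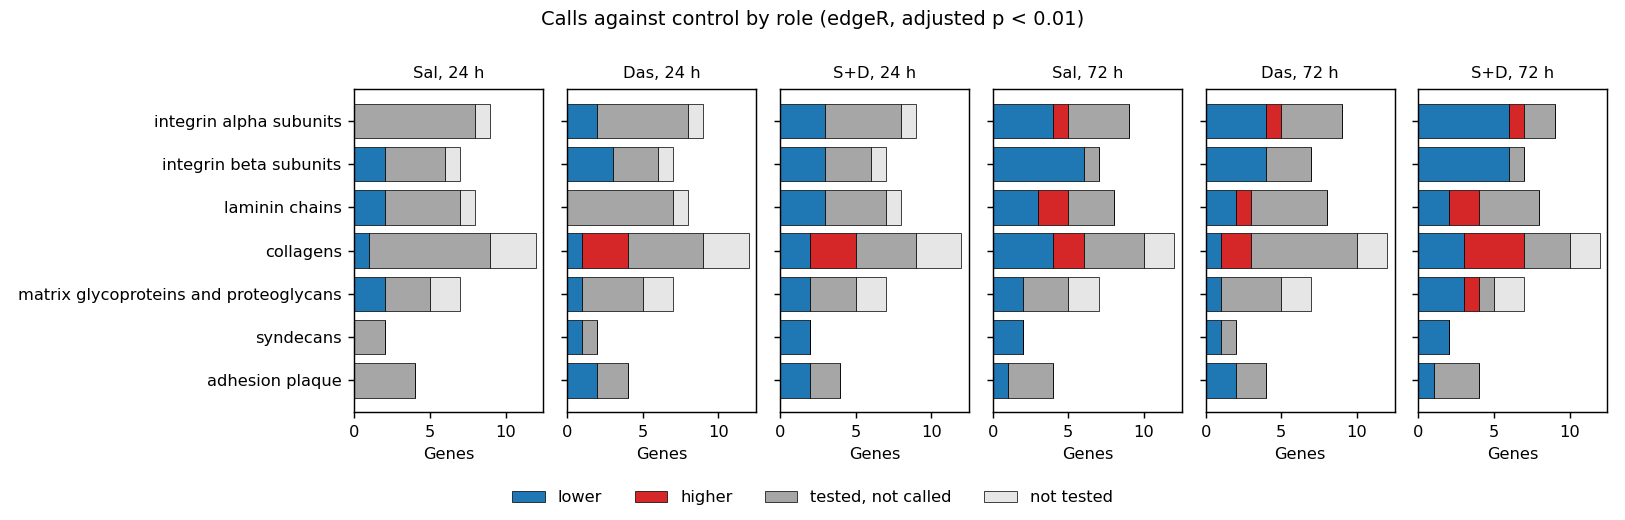
Number of members called higher, called lower, not called and not tested at adjusted p under 0.01, as horizontal stacked bars of genes, 1 bar for each role and 1 panel for each comparison with control (Sal, Das and S+D at 24 and 72 h). The beta subunits carry 6, 4 and 6 lower calls of 7 at 72 h under Sal, Das and S+D, and no higher call.

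Among the integrin alpha subunits, ITGA9 fell furthest and ITGA1 rose. ITGA9 (chr3:37493606-37864998, plus strand, GRCh37) encodes alpha 9, the receptor partner of ITGB1 for tenascin-C. Its CPM were 5.54, 5.73, 5.49 and 4.30 in the 24 h controls, against 0.721, 0.616, 0.943 and 0.732 under Das and 0.422, 0.863, 0.569 and 0.352 under S+D. No treated library of either group reached the lowest control. The log2 fold changes were -2.79 (SE 0.36, adjusted p 4.15e-05) under Das and -3.22 (SE 0.37, adjusted p 4.37e-06) under S+D by edgeR; under Sal it was -0.94 (adjusted p 0.0656), which passed with the replicate block (-1.02, adjusted p 0.00269). At 72 h the controls held 10.2, 9.31, 10.7 and 9.83 CPM and the Sal libraries 0.035, 0, 0.213 and 0.0254. The Das libraries lay at 0.249, 0.25, 1.71 and 0.784, and the S+D libraries at 0.256, 0.105, 0.119 and 0.14. Thus a gene at 10.0 ± 0.6 CPM (SD, n = 4) in controls lay at or below 1.71 CPM in all 12 treated libraries, with fitted log2 changes of -7.23 (SE 0.64), -3.73 (SE 0.47) and -6.02 (SE 0.57), the largest adjusted p being 2.3e-05.

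ITGA1 (chr5:52083750-52255039, plus strand), the alpha 1 subunit of a collagen and laminin receptor, showed the reverse at 72 h. Controls gave 0.067, 0.212, 0.111 and 0.0808 CPM and the Das libraries 0.56, 0.536, 0.124 and 0.294. The Sal libraries held 3.36, 3.98, 4.61 and 4.37 CPM and the S+D libraries 7.68, 7.86, 8.80 and 8.87, so the 4 groups stood in the order control, Das, Sal, S+D, with only control and Das overlapping. The log2 fold changes were 5.03 (SE 0.36, adjusted p 1.18e-08) under Sal, 1.60 (SE 0.42, adjusted p 0.00783) under Das and 6.05 (SE 0.36, adjusted p 1.01e-09) under S+D in edgeR's test. The call under Das was lost with replicates 1, 2 and 3 alone (1.55, adjusted p 0.0301). At 24 h ITGA1 had 1 to 16 counts in any library and was not tested.

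ITGA5 and ITGA6 fell at 72 h, ITGA6 in all 3 treatments and ITGA5 under Sal and S+D. For ITGA5, the alpha subunit of the classical fibronectin receptor, the controls held 19.5, 19.5, 23.0 and 33.2 CPM, Sal 3.99, 3.92, 2.34 and 10.9, and S+D 6.85, 5.47, 7.81 and 12.3. All treated values were below all control values, with log2 changes of -2.17 (SE 0.41, adjusted p 0.000176) and -1.57 (SE 0.40, adjusted p 0.0023) by edgeR. Under Das the 4 libraries lay at 6.62, 6.93, 9.33 and 17.3 CPM and the change of -1.25 did not pass (adjusted p 0.0222), but did so with replicates 1, 2 and 3 alone (-1.44, adjusted p 0.000175). At 24 h no comparison of ITGA5 passed, other than S+D with replicates 1, 2 and 3 alone (-0.36, adjusted p 0.00232). ITGA6, the alpha subunit of hemidesmosomes, fell under S+D at 24 h from 150.4, 148, 145 and 127 CPM to 85.7, 86.6, 85.9 and 55.6 (log2 change -0.83, SE 0.22, adjusted p 0.00552 by edgeR). With the replicate block its falls under Sal (-0.39, adjusted p 0.00951) and Das (-0.67, adjusted p 7.46e-05) passed as well. At 72 h ITGA6 was lower in all 3 treatments, from 154 ± 21.6 CPM in controls to 88.7 ± 12.6 under Sal, 86.5 ± 16.4 under Das and 84.5 ± 12.4 under S+D (SD, n = 4), so the treatments gave nearly 1 level.

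ITGAV, the alpha V subunit that pairs with several beta chains to bind RGD-containing ligands, was graded at 72 h. Controls lay at 339, 319, 294 and 314 CPM, Sal at 223, 256, 265 and 238, Das at 188, 205, 228 and 174, and S+D at 113, 172, 166 and 163. All 12 treated values were below the controls, but the change under Sal (-0.38, adjusted p 0.0137) did not pass, whereas Das (-0.68, adjusted p 0.000712) and S+D (-1.06, adjusted p 1.56e-06) did by edgeR. At 24 h the falls of ITGAV under Das and S+D passed with the replicate block (-0.52, adjusted p 0.000206, and -0.46, adjusted p 0.000332) and with replicates 1, 2 and 3 alone (-0.38 and -0.48), but not otherwise. ITGA3, a laminin receptor subunit, was lower under Das (-0.63) and S+D (-0.92) at 24 h and with all 3 treatments at 72 h (-0.63, -1.10 and -0.48). With replicates 1, 2 and 3 alone its fall under S+D at 72 h missed the threshold (-0.38, adjusted p 0.0125), and with the block its fall under Sal at 24 h passed (adjusted p 0.00574). ITGA7 was called only under S+D at 72 h (-1.32, adjusted p 0.00262). ITGA2, a collagen receptor subunit, and ITGA10 were called in no comparison with control, except that ITGA2 was higher at 24 h under Das (0.45, adjusted p 0.00776) and S+D (0.56, adjusted p 0.000755) with the replicate block, and likewise with replicates 1, 2 and 3 alone (0.65 and 0.66).

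**Figure D3:**
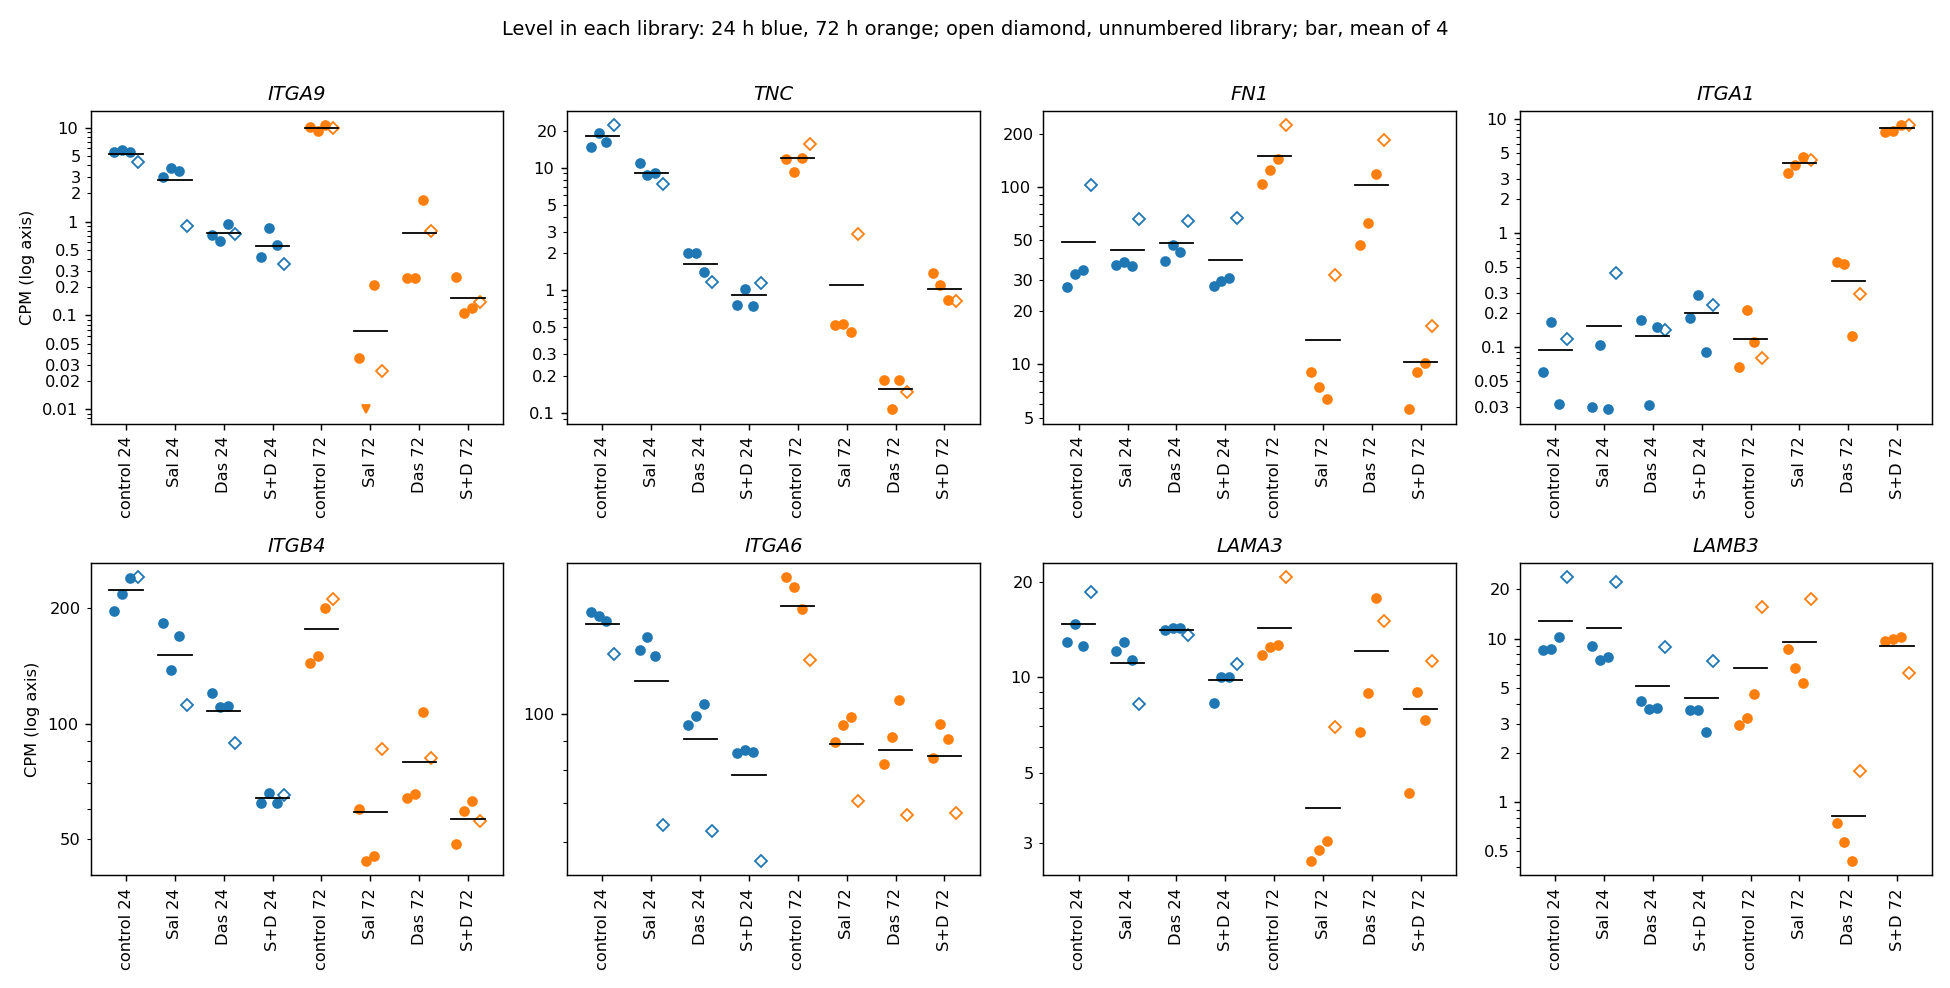
CPM on a log axis in each of the 32 libraries for 8 genes (ITGA9, TNC, FN1, ITGA1, ITGB4, ITGA6, LAMA3, LAMB3), by group; open diamonds are the unnumbered libraries, the bar is the mean of 4, and a triangle marks a library with 0 counts drawn at 0.01. ITGA9 falls from a mean of 10.0 to 0.0682 CPM under Sal at 72 h, and the unnumbered LAMB3 controls (23.9 and 15.6 CPM) sit above their numbered replicates.

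Most integrin beta subunits fell at 72 h. Of 7, 6 were called lower under Sal (85.7%, background 26.8%), 4 under Das (57.1%, background 9.36%) and 6 under S+D (85.7%, background 27.9%), and their median log2 change was -1.61, -1.16 and -1.83, against -0.63, -0.32 and -0.64 for all tested members. ITGB4 (chr17:73717408-73753899, plus strand), the beta 4 chain of hemidesmosomes, held 197, 218, 239.7 and 242 CPM in the 24 h controls and 183, 138, 169 and 112 under Sal. It held 120.1, 110.4, 111 and 88.8 CPM under Das and 61.9, 66.0, 62.1 and 65.1 under S+D, the lowest of the groups. Each treated group lay below the controls without overlap, with log2 changes of -0.58 (SE 0.14, adjusted p 0.00931), -1.04 (SE 0.14, adjusted p 4.93e-05) and -1.78 (SE 0.14, adjusted p 7.91e-08) in edgeR's test. At 72 h the means were 177 ± 34.8 CPM in controls, 58.7 ± 19.7 under Sal, 79.4 ± 20.0 under Das and 56.5 ± 6.04 under S+D (SD, n = 4), and all 3 changes passed (-1.61, -1.16 and -1.66).

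ITGB2, the leukocyte beta 2 chain, was low in this epithelial line and fell further. Its 72 h controls held 9.11, 8.60, 9.98 and 17.3 CPM, Sal 1.37, 0.664, 0.815 and 1.80, Das 2.64, 2.11, 2.52 and 3.04, and S+D 1.31, 1.05, 1.07 and 0.954. All treated libraries lay below all controls, with log2 changes of -3.27 (SE 0.29, adjusted p 8.91e-08), -2.13 (SE 0.27, adjusted p 2.8e-05) and -3.37 (SE 0.29, adjusted p 5.52e-08) by edgeR. At 24 h Das (-1.08) and S+D (-1.30) had already lowered ITGB2, while the change under Sal (-0.45, adjusted p 0.165) did not pass. ITGB5, which pairs with alpha V to bind vitronectin, was lower in all 6 comparisons, and at 72 h went from 190.0 ± 14.2 CPM to 46.8 ± 2.05 under Sal, 75.6 ± 9.92 under Das and 37.0 ± 1.34 under S+D (SD, n = 4).

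ITGB6, the epithelial beta chain that with alpha V activates TGF-beta, was lower in both groups given Sal at 72 h. Controls lay at 146, 137, 121 and 151 CPM, Sal at 49.2, 62.6, 61.2 and 70.5, and S+D at 51.1, 57.6, 56.5 and 70.8. The Das libraries, at 100.1, 109.9, 118 and 130.1 CPM, overlapped the controls (-0.28, adjusted p 0.104), whereas the changes under Sal (-1.20, SE 0.13, adjusted p 6.15e-07) and S+D (-1.25, SE 0.13, adjusted p 3.65e-07) passed by edgeR, and S+D lay below Das by 0.97 (adjusted p 1.94e-05). At 24 h ITGB6 passed only under S+D and only with replicates 1, 2 and 3 alone (-0.27, adjusted p 0.000123). ITGB8, another partner of alpha V, was lower at 72 h under Sal (-1.09) and S+D (-1.83) and not called under Das (-0.50, adjusted p 0.0705); at 24 h it was lower under Das with the replicate block (-0.72, adjusted p 0.000907) and with replicates 1, 2 and 3 alone (-0.43). ITGB3 gave 24 to 40 counts in the 72 h controls against 1 to 6 under Sal, 0 to 11 under Das and 0 to 1 under S+D. Its fitted changes were -3.15, -2.66 and -5.21, and the ratio of summed counts per total under S+D was 41.9-fold lower (exact 95% interval 14.0 to 206, counting error only).

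ITGB1, the common beta 1 chain, was the 1 beta subunit called in no treatment at 72 h, though under Das ITGB6 and ITGB8 were not called either. At 72 h its libraries held 279, 263, 245 and 235 CPM in controls, 261, 276, 278 and 213 under Sal, 225, 225, 219 and 171 under Das, and 198, 239, 237 and 199 under S+D. These ranges overlapped for Sal and S+D and not for Das, and the log2 changes of -0.01 (SE 0.12), -0.29 (SE 0.12) and -0.24 (SE 0.12) did not pass, with adjusted p from 0.0688 to 0.952 in edgeR's test. At 24 h ITGB1 did not pass either, but with the replicate block it was lower under Das (-0.38, adjusted p 0.000426) and S+D (-0.31, adjusted p 0.00123), as it was with replicates 1, 2 and 3 alone (-0.29 and -0.33). The alpha subunits that pair with it thus moved in different directions at 72 h, ITGA1 higher and ITGA3, ITGA6, ITGA9 and, under Sal and S+D, ITGA5 lower, while ITGB1 itself was not called.

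Of the 8 laminin chains at 72 h, 2 were called higher (25%, background 26.3%) and 3 lower (37.5%, background 26.8%) under Sal, 1 higher (background 10.5%) and 2 lower (25%, background 9.36%) under Das, and 2 higher (25%, background 27.0%) and 2 lower (25%, background 27.9%) under S+D. Apart from the lower calls under Sal and Das, these shares lay near those of all genes. The partner chains of laminin-332, LAMA3 and LAMB3, are of interest as ligands of alpha 6 beta 4. RefSeq promoter windows (GRCh38.p14) ran from 250 bases before to 50 after an annotated start, which need not be the first of the gene. Windows of both genes held the AP-1 motif, searched here as TGACTCA or TGAGTCA on both strands. For LAMB3, only 1 of its windows held it. The matches, in capitals with 20 bases on either side and read along the gene's own strand, were at chr18:23872875-23872921 and chr18:23872931-23872977 (plus strand) for LAMA3 and chr1:209651415-209651461 (minus strand) for LAMB3. They start 125, 69 and 67 bases before the annotated start of their window.
LAMA3, first match: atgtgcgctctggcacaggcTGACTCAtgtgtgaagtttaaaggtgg
LAMA3, second match: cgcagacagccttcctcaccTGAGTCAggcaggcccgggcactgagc
LAMB3: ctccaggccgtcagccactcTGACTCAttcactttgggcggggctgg
Of the 38 members with a window, 3 (7.89%) held this motif, ITGA5 being the third, against 6.05% of all 27305 genes with a window, and a match is a description of the letters only.

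LAMA3 (chr18:21269417-21536186 in GRCh37, plus strand), the alpha 3 chain, fell under Sal at 72 h from 11.7, 12.4, 12.6 and 20.7 CPM to 2.63, 2.86, 3.05 and 6.96 (log2 change -1.89, SE 0.37, adjusted p 0.000231 by edgeR). Under Das its libraries lay at 6.72, 8.90, 17.7 and 15.0 CPM and overlapped the controls. Under S+D they lay at 4.32, 8.98, 7.31 and 11.2, all below the controls, and the change of -0.86 (adjusted p 0.04) passed only with the replicate block (-0.89, adjusted p 0.00127). LAMB3 (chr1:209788215-209825770 in GRCh37, minus strand), the beta 3 chain, took another course: Das lowered it at 72 h from 2.95, 3.28, 4.56 and 15.6 CPM to 0.746, 0.572, 0.435 and 1.54 (log2 change -2.97, SE 0.55, adjusted p 0.000648 by edgeR). Under Sal the libraries held 8.68, 6.61, 5.38 and 17.4 CPM and under S+D 9.70, 9.93, 10.3 and 6.12, neither of which passed (0.51, adjusted p 0.363, and 0.43, adjusted p 0.447). The unnumbered control of 15.6 CPM was the highest of its group, and with replicates 1, 2 and 3 alone LAMB3 was higher under Sal (0.91, adjusted p 0.0016) and S+D (1.45, adjusted p 3.51e-05). At 24 h LAMB3 was not called with all libraries, but was lower with the replicate block under Das (-1.27, adjusted p 2.61e-07) and S+D (-1.50, adjusted p 1.26e-08) and with replicates 1, 2 and 3 alone (-1.20 and -1.44). In the same Das libraries at 72 h, then, LAMB3 fell and LAMA3 did not pass.

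LAMB2 (chr3:49158547-49170551, minus strand), the beta 2 chain of other laminins, rose in all 3 treatments at 72 h. Its libraries went from 186, 204, 257 and 242 CPM in controls to 614, 484, 462 and 574 under Sal and 417, 495, 492 and 502 under S+D, without overlap. The log2 changes were 1.25 (SE 0.16, adjusted p 3.19e-06) and 1.08 (SE 0.16, adjusted p 1.27e-05), and under Das 0.58 (SE 0.16, adjusted p 0.00885), in edgeR's test. The Das libraries (346, 320.2, 242 and 433 CPM) overlapped the controls, and that call was lost with replicates 1, 2 and 3 alone (0.48, adjusted p 0.0307). At 24 h the same 3 replicates alone called LAMB2 higher under Sal, Das and S+D (0.26, 0.64 and 0.47). LAMB1, the beta 1 chain, moved the other way: it was lower under Sal and S+D at both times (-0.42 and -0.62 at 24 h, -1.22 and -1.73 at 72 h) and not called under Das. LAMA4, a chain of vascular and muscle basement membranes, was lower under Sal and S+D at 24 h (and under Das with replicates 1, 2 and 3 alone, -0.38) and in all 3 treatments at 72 h, from 108 ± 10.9 CPM to 23.4 ± 7.89 under Sal, 42.7 ± 9.81 under Das and 12.4 ± 1.58 under S+D (SD, n = 4). LAMA1, the alpha 1 chain of embryonic basement membranes, had 0, 1, 0 and 0 counts in the 72 h controls, but 21 to 50 under Sal and 18 to 43 under S+D. The ratio of its summed counts per total was 140.4 under Sal (exact 95% interval 24.7 to 5588) and 129 under S+D (22.8 to 5153); both were called, and Das, with 0 to 3 counts, was not. LAMA5 and LAMC1 were called in no comparison with control, except LAMA5 under S+D at 24 h with the replicate block (-0.65, adjusted p 0.000292) and with replicates 1, 2 and 3 alone (-0.66, adjusted p 1.27e-05).

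Collagens were called in both directions. At 72 h, of the 10 tested, 2 were higher under Sal (20%, background 26.3%), 2 under Das (20%, background 10.5%) and 4 under S+D (40%, background 27.0%), beside 4 (40%, background 26.8%), 1 (10%, background 9.36%) and 3 lower (30%, background 27.9%). The lower shares under Das and S+D lay near the background. COL12A1, a collagen that binds to the surface of fibrils, rose wherever Das was present. At 72 h it held 5.26, 3.94, 3.67 and 6.79 CPM in controls, a mean of 14.1 ± 1.81 under Das (SD, n = 4, lowest 11.8) and 11.8, 21.2, 19.4 and 18.7 under S+D. The Sal libraries, at 2.98, 2.76, 3.40 and 9.76 CPM, overlapped the controls (-0.06, adjusted p 0.886), whereas Das (1.52, SE 0.33, adjusted p 0.00228) and S+D (1.84, SE 0.33, adjusted p 0.000118) passed by edgeR. At 24 h the changes were 1.66 under Das and 0.98 under S+D, both called. COL1A1, the main chain of fibrillar type I collagen, rose under Sal and S+D at 72 h, from 24.7, 23.6, 31.7 and 32.2 CPM to 76.0, 56.1, 55.5 and 77.2 and to 68.1, 79.7, 80.4 and 120.0. These groups did not overlap with the controls, and the log2 changes were 1.22 (SE 0.21, adjusted p 8.1e-05) and 1.62 (SE 0.21, adjusted p 4.37e-06) by edgeR. Under Das at 72 h its change of 0.76 missed the threshold (adjusted p 0.0106) and passed with replicates 1, 2 and 3 alone (0.61, adjusted p 0.00997); at 24 h COL1A1 was higher under S+D (0.96, adjusted p 0.00956) and, with the replicate block, under Das (1.08, adjusted p 2.02e-06). COL1A2, which encodes the partner chain, stayed at 0 to 1 counts in every library.

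The chains of type IV collagen, the network collagen of basement membranes, moved apart. COL4A1 held 6.08, 6.09, 5.96 and 6.35 CPM in the 24 h controls, 3.77, 3.61, 2.95 and 2.47 under Sal, 4.73, 3.70, 3.21 and 3.97 under Das, and 2.20, 2.72, 2.19 and 2.96 under S+D. Every treated value was below every control, with log2 changes of -0.95 (SE 0.16, adjusted p 0.00113), -0.63 (SE 0.16, adjusted p 0.00951) and -1.25 (SE 0.16, adjusted p 1.56e-05) in edgeR's test, but at 72 h no change of COL4A1 passed. COL4A2, which shares a promoter region with COL4A1, was lower under S+D at 24 h (-0.86), under Sal there only with the replicate block (-0.68, adjusted p 0.00491), and in all 3 treatments at 72 h (-1.21, -0.84 and -0.92). COL4A5 changed direction with the drug at 72 h. It held 73.6, 75.6, 80.4 and 83.0 CPM in controls, 58.2, 47.3, 51.8 and 46.9 under Sal, 107, 104, 115 and 118 under Das, and 44.8, 51.3, 53.1 and 48.4 under S+D. No pair of these groups overlapped apart from Sal and S+D, and the changes of -0.63 (SE 0.10, adjusted p 3.03e-05), 0.50 (SE 0.10, adjusted p 0.0011) and -0.68 (SE 0.10, adjusted p 1.37e-05) all passed by edgeR. At 24 h COL4A5 was higher under Das (0.71) and under S+D (0.56). COL4A6, its neighbour on chromosome X, was lower under Sal (-1.18) and S+D (-1.72) at 72 h and was not called under Das.

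COL18A1, the basement membrane collagen from which endostatin is cut, rose under Das at 24 h, from 110.0, 124, 128 and 105 CPM to 212, 183, 177 and 161 (log2 change 0.67, SE 0.13, adjusted p 0.00126 by edgeR). Under S+D at 24 h, at 105, 116, 107 and 119 CPM, the same gene overlapped the controls. At 72 h it fell under Sal, from 107, 126, 157 and 137 CPM to 70.9, 50.0, 44.4 and 54.7 (-1.28, SE 0.18, adjusted p 8.32e-06). COL6A1, a chain of microfibrillar type VI collagen, had 0 to 2 counts in the 72 h controls, 12 to 42 under Sal and 18 to 59 under S+D, which in CPM was 0.636 ± 0.297 and 1.03 ± 0.454 (SD, n = 4) against 0.0202 ± 0.0255. The ratio of summed counts per total was 31.3 under Sal (exact 95% interval 10.4 to 155) and 49.7 under S+D (16.7 to 244), both called, and its partner chain COL6A2 gave 0 or 1 count in each of these libraries. COL7A1, the anchoring fibril collagen, was higher only under S+D at 72 h (1.24, adjusted p 0.00761). COL5A1 had 0 to 1 counts in the 72 h controls and 1 to 17 under Sal or S+D; its changes of 3.97 (adjusted p 0.01) and 3.67 (adjusted p 0.0171) were not called, but passed with replicates 1, 2 and 3 alone (4.81, adjusted p 0.00376, and 4.45, adjusted p 0.00721), and for S+D also with the replicate block (adjusted p 0.00664).

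The glycoproteins that integrins bind included large falls at both times. TNC (chr9:117781854-117880486, minus strand), tenascin-C, held 14.8, 19.1, 16.1 and 22.4 CPM in the 24 h controls and 10.9, 8.74, 9.02 and 7.37 under Sal. Under Das it held 2.02, 2.00, 1.40 and 1.18 CPM and under S+D 0.754, 1.02, 0.748 and 1.14. All 4 groups were separate in that order, and the log2 changes were -1.01 (SE 0.19, adjusted p 0.00205), -3.44 (SE 0.21, adjusted p 3.17e-08) and -4.26 (SE 0.23, adjusted p 1.65e-09) by edgeR. At 72 h TNC held 11.8, 9.31, 12.0 and 15.5 CPM in controls, 0.525, 0.531, 0.461 and 2.87 under Sal, 0.187, 0.107, 0.187 and 0.147 under Das, and 1.38, 1.10, 0.835 and 0.814 under S+D. Das alone thus gave the lowest level, with a log2 change of -6.24 (SE 0.55, adjusted p 5.57e-07) beside -3.43 (SE 0.44) and -3.57 (SE 0.44). TNC was called lower in all 6 comparisons, and its receptor subunit ITGA9 in 5 of them, missing Sal at 24 h.

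FN1 (chr2:216225163-216300796, minus strand), fibronectin, was not called at 24 h, where its changes under Sal, Das and S+D were -0.17, -0.00 and -0.31, but with replicates 1, 2 and 3 alone it was higher under Das (0.49, adjusted p 8.15e-05). At 72 h it fell under Sal, from 104, 125, 144 and 224 CPM to 9.07, 7.41, 6.38 and 31.8, and under S+D to 5.57, 9.09, 10.2 and 16.4. Every library of these 2 groups lay below the lowest control, and the log2 changes were -3.46 (SE 0.53, adjusted p 2.12e-05) and -3.87 (SE 0.54, adjusted p 7.59e-06) by edgeR. Under Das the libraries spread over 46.8, 62.9, 118 and 183 CPM, overlapped the controls and did not pass (-0.54, adjusted p 0.405). FN1 was lower under S+D than under Das by 3.32 (SE 0.53, adjusted p 8.66e-05 by edgeR).

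THBS1, thrombospondin-1, a matrix protein that binds CD36 and CD47, fell under Sal at 24 h, from 87.7, 88.6, 90.9 and 185 CPM to 42.6, 38.8, 36.1 and 45.5, and under S+D to 36.4, 41.4, 40.2 and 23.1. No treated value reached the controls, with log2 changes of -1.48 (SE 0.23, adjusted p 0.00054) and -1.65 (SE 0.23, adjusted p 3.08e-05) by edgeR. Under Das at 24 h it lay at 101, 101, 103 and 76.7 CPM (-0.23, adjusted p 0.527), and with replicates 1, 2 and 3 alone the sign turned and passed (0.22, adjusted p 0.0051). By 72 h the controls were lower, at 31.5, 27.3, 28.2 and 63.8 CPM, and S+D held 13.0, 16.6, 15.9 and 14.4 (-1.35, SE 0.29, adjusted p 0.000491). Under Sal the libraries held 17.5, 14.3, 15.2 and 36.8 CPM and under Das 43.9, 46.4, 47.1 and 46.1, neither called (-0.86 and 0.28), though with replicates 1, 2 and 3 alone both passed (-0.91, adjusted p 2.11e-05, and 0.66, adjusted p 0.00121). HSPG2, perlecan, was called higher under S+D at 72 h (0.98, adjusted p 0.00192), and at 24 h under Sal and Das with replicates 1, 2 and 3 alone (0.49 and 0.83). AGRN was called lower under S+D at 24 h with the replicate block (-0.57, adjusted p 0.000519) and with replicates 1, 2 and 3 alone (-0.70, adjusted p 2.56e-05), and in no comparison with all libraries.

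Both syndecans fell at 72 h. SDC1 went from 637 ± 53.0 CPM to 164 ± 29.1 under Sal, 251 ± 52.4 under Das and 167 ± 7.71 under S+D (SD, n = 4), or -1.97, -1.35 and -1.94 on the log2 scale; at 24 h it was lower under Das (-0.82) and S+D (-1.21). SDC4, the syndecan of focal adhesions, was lower under Sal (-0.63) and S+D (-0.64) at 72 h and under S+D at 24 h (-0.35); with the block Das at 24 h also passed (-0.27, adjusted p 0.00208). With replicates 1, 2 and 3 alone SDC1 passed under Sal at 24 h too (-0.30, adjusted p 0.00862).

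Within the adhesion plaque only VCL was called in all treatments at 72 h. It went from 395 ± 10.3 CPM to 161 ± 12.8 under Sal, 227 ± 23.7 under Das and 170.5 ± 20.5 under S+D (SD, n = 4), or -1.32, -0.81 and -1.23 on the log2 scale. At 24 h VCL was lower under Das (-0.57) and S+D (-0.92), and under Sal with the replicate block (-0.43, adjusted p 0.00122). PXN was lower under Das at both times (-0.39 and -0.65) and under S+D at 24 h (-0.77), while at 72 h its change under Sal and under S+D was 0.03. PTK2 and TLN1, which encode the kinase and the link from integrin tails to actin, were not called against control in any treatment; with replicates 1, 2 and 3 alone TLN1 was lower under S+D at 24 h (-0.24, adjusted p 0.00467). Of the 38 members with a promoter window, 8 (21.1%) held the TEAD motif GGAATG on either strand in at least 1 window, against 16.7% of all genes. A CArG box was held by 1 (2.63%), against 1.6%. Besides VCL and THBS1, the members with the TEAD motif were ITGA5, ITGA10, ITGB1, PXN, SPARC and COL12A1, which did not move together. For ITGB1 and for PXN, only 1 of the gene's windows held it. COL12A1 was called higher under Das and S+D at each time. ITGB1 and ITGA10 were called in no comparison with control with all libraries, and SPARC was not tested. A match is a description of the letters only. VCL and the matrix gene THBS1, both called lower under S+D at each time, are shown with the match in capitals and 20 bases on either side, at chr10:73997925-73997970 and chr15:39581013-39581058 (GRCh38.p14, both plus strand).
VCL: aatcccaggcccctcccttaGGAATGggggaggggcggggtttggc
THBS1: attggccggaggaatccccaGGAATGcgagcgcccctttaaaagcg
The only CArG box was in the window of ITGB6, at chr2:160200303-160200352 (minus strand), which is shown as the single match of that motif.
ITGB6: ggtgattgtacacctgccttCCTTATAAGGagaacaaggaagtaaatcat

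Set against Sal alone, S+D differed little at 72 h and more at 24 h. At 72 h 2 members were higher under S+D than under Sal (background 1.42%), COL12A1 (1.90, SE 0.34, adjusted p 0.00198) and COL18A1 (0.80, SE 0.18, adjusted p 0.00968), and 2 lower (background 1.59%), ITGAV (-0.68, SE 0.13, adjusted p 0.0033) and LAMA4 (-0.91, SE 0.20, adjusted p 0.00927). The count fell to 0 without Sal replicate 3, and with replicates 1, 2 and 3 alone COL12A1 (background 2.40%) and ITGAV (background 1.91%) stayed called while LAMA4 (-0.68, adjusted p 0.0186) and COL18A1 (0.80, adjusted p 0.0102) did not. At 24 h 2 were higher (background 5.83%), COL12A1 (1.60) and COL4A5 (0.57), and 10 lower (background 7.06%), of which TNC (-3.25), ITGA9 (-2.28), ITGB4 (-1.20) and ITGB5 (-0.94) were the furthest. The other 6 were ITGA3, ITGB2, LAMA4, SDC1, PXN and VCL, with differences from -0.85 to -0.50. At 24 h replicates 1, 2 and 3 alone gave 28 calls, 5 higher (background 18.4%) and 23 lower (background 23.0%), among them LAMB3 (-1.27) and ITGA6 (-0.60).

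Set against Das alone, S+D differed more at 72 h. At 24 h 0 members were higher (background 4.03%) and 6 lower (background 4.46%), THBS1 (-1.42), LAMA4 (-0.96), ITGB4 (-0.74), COL18A1 (-0.70), LAMB1 (-0.54) and ITGB5 (-0.52). The lower count rose to 14 with the replicate block (background 11.2%) and to 23 with replicates 1, 2 and 3 alone (background 19.4%). TNC (-1.14) and LAMA5 (-0.83) were among the genes added by the latter. Higher members were also 0 by DESeq2 and 0 at an unadjusted p under 0.05 by edgeR, which 4917 of the 16357 genes tested passed in either direction. At 72 h 8 were higher (background 14.3%), COL6A1 (4.67), ITGA1 (4.46), LAMA1 (4.19), LAMB3 (3.40), TNC (2.67), COL1A1 (0.86), PXN (0.67) and ITGA3 (0.62). Another 13 were lower (background 17.7%), with FN1 (-3.32) and ITGA9 (-2.29) at the far end, then LAMA4, COL4A6, THBS1, LAMB1, ITGB8, ITGB2, COL4A5, ITGB5, ITGB6, SDC1 and VCL from -1.79 to -0.42. In replicates 1, 2 and 3 alone 9 were higher (background 16.8%), LAMB2 (0.62, adjusted p 0.00619) being added, and 12 lower (background 19.8%), ITGA9 (-2.25, adjusted p 0.0251) being lost. LAMB3 and TNC, both very low under Das alone, were therefore higher when Sal was present too, with 9.01 ± 1.94 CPM of LAMB3 against 0.824 ± 0.496 (SD, n = 4).

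Set against the sum of the single-drug changes, S+D showed a smaller fall than the sum for several genes at 72 h. At 24 h 0 members were called higher (background 0%) and 0 lower (background 0.0306%) by edgeR, with 0 and 1 at an unadjusted p under 0.05 and 0 and 0 by DESeq2. In either direction, 1245 of the 16357 genes tested passed that unadjusted p. With replicates 1, 2 and 3 alone 0 were higher (background 0.584%) and 6 lower than the sum at 24 h (background 4.50%), namely HSPG2 (-1.18), FN1 (-0.81), LAMA5 (-0.70), LAMB2 (-0.43), LAMA4 (-0.36) and ITGB6 (-0.31), with adjusted p from 0.000185 to 0.00893. At 72 h 7 were above the sum (background 3.43%): TNC by 6.10 (SE 0.71, adjusted p 6.33e-05), ITGA9 by 4.94 (SE 1.01, adjusted p 0.00346), ITGB2 by 2.02 (SE 0.40, adjusted p 0.00303), SDC1 by 1.38, ITGA3 by 1.25, ITGB5 by 1.00 and VCL by 0.90. All 7 had been called lower with each drug alone and with the pair, so the pair fell short of the added log2 falls. Below the sum there were 0 (background 4.09%), with 2 at an unadjusted p under 0.05 and 1 by DESeq2. In either direction, 5558 of the 16682 genes tested passed that unadjusted p. In replicates 1, 2 and 3 alone 12 were above the sum (background 6.62%), among them LAMB3 (3.16) and ITGA5 (2.41), and THBS1 was below it (-0.70, background 6.24%), while ITGA9 was not called (4.67, adjusted p 0.0183). ITGA9 was near 0 counts under Sal alone, where a further fall could not be seen at this depth. TNC was likewise very low under Das alone, and a fall of the size of its sum (-9.67) could not be seen either. The sizes of 6.10 for TNC and 4.94 for ITGA9 are therefore bound only loosely.

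**Figure D4:**
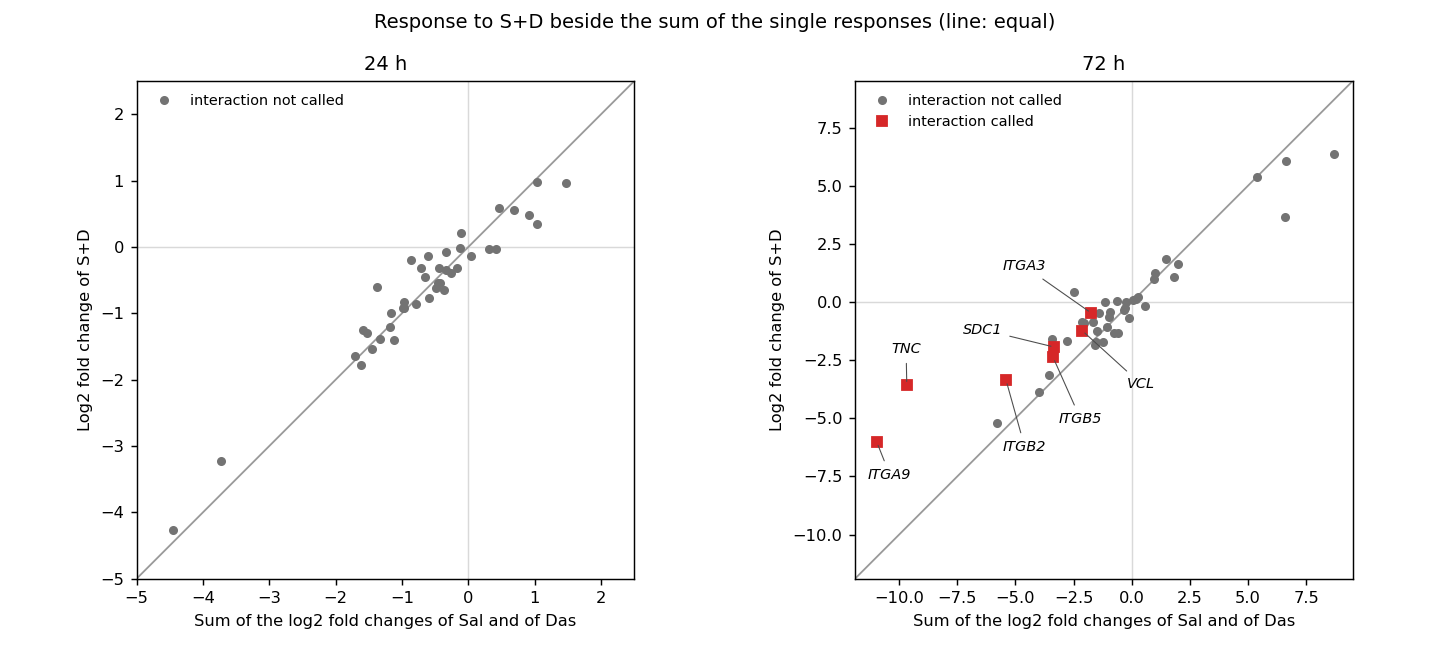
Log2 change under S+D (vertical axis) against the sum of the log2 changes under Sal and under Das (horizontal axis) for each tested member, at 24 h and 72 h, with the diagonal where both are equal. At 24 h no member is called off the diagonal with all libraries, and at 72 h the 7 called genes, TNC and ITGA9 furthest, lie above it.

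The time comparisons show which of these changes were late. In control cells 3 members were higher at 72 h than at 24 h (background 2.00%), ITGB3 (2.77, SE 0.49, adjusted p 0.000656), COL4A5 (0.45) and PTK2 (0.35), and 1 was lower (background 0.760%), THBS1 (-1.59, SE 0.27, adjusted p 0.00056). Replicates 1, 2 and 3 alone gave 8 higher (background 7.02%), FN1 (1.99) and ITGA5 (1.13) among them, and 4 lower (background 4.01%). The change under Sal differed between the times for 2 members upward (background 8.21%), ITGA1 (4.38) and LAMB2 (0.90), and for 15 downward (background 13.7%), with ITGA9 (-6.28), FN1 (-3.28), ITGB2 (-2.82) and TNC (-2.40) foremost. For Das 0 differed upward (background 0.0522%) and 0 downward (background 0.174%), with 0 and 10 at an unadjusted p under 0.05 and 0 and 1 by DESeq2. In either direction, 2451 of the 17227 genes tested passed that unadjusted p. The replicate block called 3 downward for Das (background 1.18%), and replicates 1, 2 and 3 alone called 6 (background 2.75%), namely TNC (-2.88), LAMB3 (-1.40), ITGA5 (-1.30), LAMA4 (-1.10), COL18A1 and ITGB5 (-0.54). For S+D 2 differed upward (background 6.15%), ITGA1 (5.06) and PXN (0.85), and 11 downward (background 10.1%), led by ITGB3 (-4.27), FN1 (-3.51), ITGA9 (-2.75) and ITGB2 (-2.03). The numbered replicates alone gave 4 upward (background 16.9%) and 18 downward (background 22.4%) for Sal, and 6 upward (background 13.7%) and 14 downward (background 17.9%) for S+D. ITGB3, which rose in the control cells with time, had only 9 counts in all under S+D at 24 h.

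**Figure D5:**
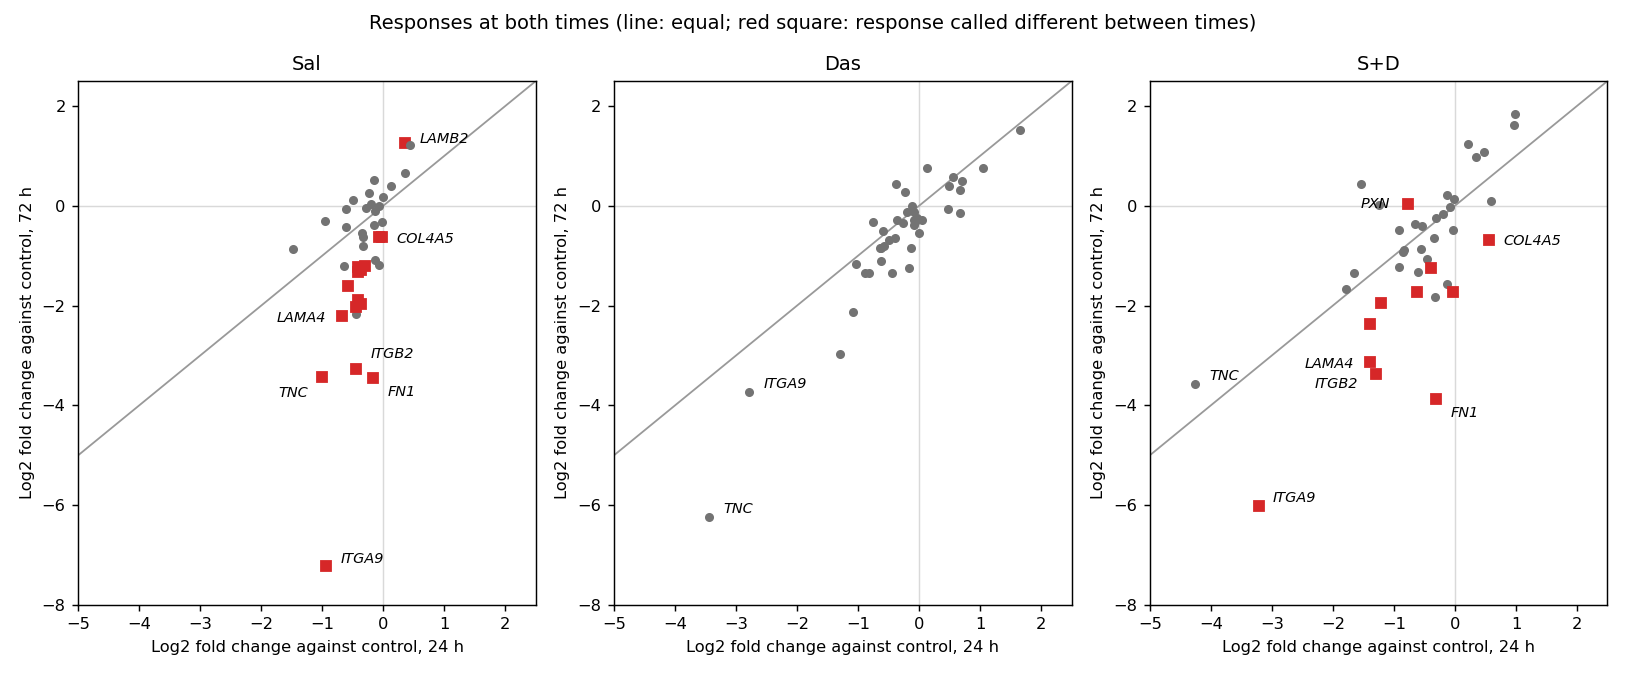
Log2 change against control at 72 h (vertical axis) plotted against that at 24 h (horizontal axis) for each member tested at both times, in 1 panel each for Sal, Das and S+D. Under Sal most labelled genes lie well below the diagonal (ITGA9 at -7.23 against -0.94, FN1 at -3.46 against -0.17), and under Das the points keep closer to it apart from TNC (-6.24 against -3.44).

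A further 108 genes of the same pathways, listed by role, gave 86 tested at 72 h. They too were listed with earlier results of these data known, so their shares are descriptions. Under Sal 18 were higher (20.9%, background 26.3%) and 37 lower (43%, background 26.8%). Under Das 9 were higher (10.5%, background 10.5%) and 24 lower (27.9%, background 9.36%), and under S+D 21 higher (24.4%, background 27.0%) and 37 lower (43%, background 27.9%). Of the 6 tested integrin subunits outside the 49, 5 were lower (83.3%, background 26.8%) and 1 higher (16.7%, background 26.3%) under Sal, and 4 lower (66.7%, background 27.9%) and 1 higher (16.7%, background 27.0%) under S+D. The higher one was ITGAX, the alpha X chain of myeloid cells, which went from 0.124 ± 0.0962 CPM to 4.11 ± 1.22 under Sal and 9.33 ± 2.84 under S+D (SD, n = 4). The lower ones included ITGAM, the alpha M partner of ITGB2, at 1.68 ± 0.199 CPM in controls, with log2 changes of -5.95 under Sal, -4.59 under Das and -5.18 under S+D. ITGB2 and ITGAM thus fell in the same libraries, in which the leukocyte marker sum given above was lower too, while PTPRC stayed at 0 to 5 counts in all. Of the 25 tested proteases, inhibitors and crosslinkers, 8 were higher (32%, background 26.3%) and 10 lower (40%, background 26.8%) under Sal, 3 (12%, background 10.5%) and 7 (28%, background 9.36%) under Das, and 10 (40%, background 27.0%) and 10 (40%, background 27.9%) under S+D. MMP7, matrilysin, was among the largest falls in every treatment (-4.25, -4.77 and -4.92, from 10.5 ± 2.30 CPM in controls). LOX, which crosslinks collagen, rose under Das from 13.7 ± 1.06 to 59.9 ± 35.2 CPM (2.12, SE 0.36, adjusted p 0.000281 by edgeR). Its Das libraries spread over 413 to 2963 counts, the lowest of them within the control range of 390 to 561 counts. LAMC3, the gamma 3 chain of laminin, was higher under Sal (3.60) and S+D (3.45), and COL15A1 under Das (2.28). Among the 26 adhesion plaque genes beyond the 4 members, 3 were higher (11.5%, background 26.3%) and 10 lower (38.5%, background 26.8%) under Sal, and 5 (19.2%, background 27.0%) and 10 (38.5%, background 27.9%) under S+D. At 24 h 84 of the 108 were tested, of which 3 were higher (3.57%, background 4.55%) and 5 lower (5.95%, background 2.23%) under Sal, 4 (4.76%, background 6.99%) and 11 (13.1%, background 6.88%) under Das, and 12 (14.3%, background 17.1%) and 27 (32.1%, background 16.5%) under S+D.

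Members with too few counts for the fit are given by their counts. COL6A2 (0 to 2 counts in any library) and NID1 (0 to 4) were tested at neither time, and both were too low for a fold. SPARC, tested at neither time, had 6 to 10 counts in the 72 h controls and 2 to 5 under S+D, a ratio 2.09-fold lower (exact 95% interval 1.07 to 4.26), with no overlap. COL17A1, the transmembrane collagen of hemidesmosomes, was tested and not called at 24 h; at 72 h it had 2 to 30 counts in controls and summed to 10, 10 and 6 counts under Sal, Das and S+D against 55, with overlapping libraries. For genes outside the fit, a two-sided exact permutation test of 4 against 4 libraries cannot give a p below 0.0286, so it could call none of them at 0.01 whatever their counts.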

How the data were processed

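Total RNA of the MDA-MB-468 line was sequenced by the authors from TruSeq libraries, 4 in each of 8 groups of treatment and time. The authors deposited raw counts per Ensembl gene, made from reads that per the submitters' processing notes went through bcl2fastq 2.19 and STAR 2.5.2 to GRCh37. How reads were assigned to genes (tool, gene models, strand) is not given in the sources used here, so a gene and its antisense partner cannot be told apart. The notes also name Cufflinks 2.1.1 and DESeq2, whose output was not used here.

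Groups and replicate numbers were read from the sample labels. The column of the library without a replicate number carries a 0 after the group's letter and was matched to the 1 title of that group that has no number. The 49 members, the lists of other genes and the tests were chosen with earlier results of these data known, and the members are genes listed by name. Members were selected for values in single libraries if among the 3 largest rises or falls of a comparison with control (adjusted p under 0.01, mean of at least 1 CPM in 1 of the groups). The receptor subunits ITGA6, ITGB4, ITGA5, ITGB1, ITGA9, ITGAV and ITGB6 were added, with LAMA3, LAMB3, FN1 and TNC. Some comparisons of these members are given by mean with SD or by change only, and COL6A1 by counts and mean with SD. Of other genes the 2 largest rises and falls at 72 h are named; VCL, ITGB5 and other members outside the rule are described more briefly.

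Counts were fitted with edgeR 4.0.16 in R 4.3.3 (TMM factors, filterByExpr with a minimum count of 10, quasi-likelihood F test, Benjamini-Hochberg adjustment over all genes tested), on the 16 libraries of a time (16357 genes at 24 h, 16682 at 72 h) and on all 32 for comparisons between times (17227 genes). A printed CPM is edgeR's cpm, on the TMM-scaled total. Fitted log2 fold changes use the default prior count of edgeR's fit, so those of genes with few counts depend on it. A prior count of 2 was used only for the log CPM behind the correlations between libraries. For such genes ratios of summed counts per library total are given with exact 95% binomial intervals, which cover counting error only, and exact permutation tests. A level at 3 counts or fewer was treated as the floor. DESeq2 1.42.0, other scalings, filters, sets of libraries and cutoffs were the alternatives. The scripts were tested on simulated data with known changes before use.

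Whether replicate numbers pair the libraries was checked by the correlation of same-numbered libraries' deviations from their group means. At 24 h every such pair exceeded 0.1 (0.135 to 0.321 for numbers 1 to 3), the criterion for printing blocked values, but numbered libraries with different numbers correlated equally (0.116 to 0.353), so the number shows no pairing beyond the split between numbered and unnumbered libraries. At 72 h the criterion was met for control with S+D only (lowest pair -0.03), so blocked values of single genes at 72 h are given for that comparison, and other blocked counts in the closing section and beside the differences between times. Promoter windows came from RefSeq for 38 of the 49 genes and were searched for 3 motifs.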

Additional observations from a re-analysis of the deposited data

Results flagged for a closer look

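In 151 groups of 4 libraries, taken over the 21 members selected for values in single libraries, 34 (22.5%) held a library whose gap to the others exceeded Dixon's 95% value, where chance gives about 1 in 20. The library that stood apart was the unnumbered one in 32 of the 34, and no test of its cause was made. At 24 h it was high for FN1 in controls (102 CPM), Sal (65.7) and S+D (67.0), for ITGA5 in controls (21.2), Das (17.8) and S+D (22.5), for LAMB3 in controls (23.9), Sal (22.2) and Das (8.92), for THBS1 in controls (185), for COL1A1 under Sal (59.0) and S+D (68.1), and for LAMB2 under S+D (292). It was low at 24 h for ITGA6 under Sal (64.3) and S+D (55.6), COL12A1 under Das (15.3), COL4A5 under Sal (45.4), ITGA9 in controls (4.30), ITGB6 under S+D (63.6) and THBS1 under Das (76.7).

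At 72 h the unnumbered library was high for LAMB3 (15.6), LAMA3 (20.7), THBS1 (63.8), ITGB2 (17.3) and COL4A1 (6.09) in controls, and for FN1 (31.8), LAMA3 (6.96), THBS1 (36.8), COL12A1 (9.76) and TNC (2.87) under Sal, all in CPM. It was low for ITGB1 under Das (171) and LAMB3 under S+D (6.12). The remaining pair of values were replicate 1 of S+D at 72 h, low for ITGAV (113 against 163 to 172 CPM) and for LAMB2 (417 against 492 to 502 CPM).

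The change under Sal differed between 72 and 24 h for 17 members by the interaction term in edgeR, adjusted over all genes. It was more negative at 72 h for ITGA9 (-6.28), FN1 (-3.28), ITGB2 (-2.82), TNC (-2.40), SDC1 (-1.61), ITGB5 (-1.58), LAMA4 (-1.53), LAMA3 (-1.47), ITGB4 (-1.02), COL18A1 (-0.91), VCL (-0.89), ITGB6 (-0.89), LAMB1 (-0.80), COL4A5 (-0.61) and SDC4 (-0.55), and more positive for ITGA1 (4.38) and LAMB2 (0.90). The change under S+D differed for 13: ITGB3 (-4.27), FN1 (-3.51), ITGA9 (-2.75), ITGB2 (-2.03), LAMA4 (-1.69), COL4A6 (-1.64), COL4A5 (-1.18), LAMB1 (-1.06), ITGB5 (-0.93), ITGB6 (-0.81) and SDC1 (-0.68) downward, and ITGA1 (5.06) and PXN (0.85) upward.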

How the results depend on the processing

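Of 117 calls of a member against control, 104 passed in every alternative fit and 97 also with any 1 library left out, and 0 changed direction while called. Of 154 counts under another setting, 95 stayed within 1.5 times the value in the report and 59 did not. Under Sal at 24 h, 7 members called became 12 with the replicate block, 16 with a term for the unnumbered libraries, 15 with the numbered libraries only, 4 with only the groups compared, 3 with all 32 libraries and 0 past both cutoffs. Under Das at 24 h, 13 became 23 with the replicate block, 24 with the term, 26 numbered only, 22 at an adjusted p under 0.05 and 3 past both cutoffs, and under S+D 20 became 4 past both. For S+D against Sal at 24 h, 12 became 19 with the term, 28 numbered only, 7 with only the groups compared and 3 past both. For S+D against Das at 24 h, 6 became 14 with the replicate block, 17 with the term, 23 numbered only, 14 by DESeq2, 16 at 0.05 and 0 past both. Against the sum at 24 h, 0 became 6 numbered only. At 72 h the counts past both cutoffs were 14, 7 and 18 in place of 27, 19 and 31 for Sal, Das and S+D, and 10 in place of 21 for S+D against Das. S+D against Sal at 72 h went from 4 to 7 with the replicate block, 8 with the term, 2 numbered only, 8 at 0.05 and 1 past both. Against the sum at 72 h, 7 became 12 without a filter, 16 with the replicate block, 16 with the term, 13 numbered only, 15 by DESeq2, 13 with all 32 libraries, 16 at 0.05 and 3 past both. Between times, the control count of 4 became 2 without a filter, 10 with the replicate block, 10 with the term, 12 numbered only, 7 with only the groups compared, 7 at 0.05 and 2 past both. The Sal response count of 17 became 8 past both, and the S+D response count of 13 became 22 with the replicate block, 21 with the term, 20 numbered only and 7 past both. The Das response count of 0 became 3 with the replicate block, 3 with the term, 6 numbered only, and 1 each without a filter, by DESeq2, with only the groups compared and at 0.05. The share of all genes called moved with the setting too. Under Sal at 24 h the share called lower went from 2.23% to 8.71% with the replicate block and 10.9% numbered only. Shares of all genes with the term, by DESeq2 and at 0.05 are not given here, so those counts cannot be set beside a background. Beyond the fits without the unnumbered libraries and with fewer libraries or stricter cutoffs, the cause of these shifts was not tested.

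The calls against control lost most often with 1 library left out (of 16 fits) were ITGB4 under Sal (passing in 3), COL4A1 (3) and PXN (4) under Das and COL1A1 (3) under S+D at 24 h, and LAMB2 (5) and ITGA1 (7) under Das at 72 h.

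With 1 library left out the counts ran from 4 to 8 (Sal, 24 h), 11 to 18 (Das, 24 h), 17 to 26 (S+D, 24 h), 9 to 13 (S+D against Sal, 24 h), 6 to 12 (S+D against Das, 24 h), 0 to 0 (sum, 24 h), 26 to 29 (Sal, 72 h), 16 to 22 (Das, 72 h), 28 to 32 (S+D, 72 h), 0 to 6 (S+D against Sal, 72 h), 18 to 23 (S+D against Das, 72 h), 6 to 12 (sum, 72 h), 2 to 5 (control between times), 14 to 18 (Sal response), 0 to 1 (Das response) and 11 to 14 (S+D response). The lowest for Sal at 24 h was without the unnumbered control, the highest for S+D against Das at 24 h without the unnumbered Sal library, the 0 for S+D against Sal at 72 h without Sal replicate 3, and the 12 for the sum at 72 h without Das replicate 3.

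All results rest on 1 cell line, 4 cultures a group and 1 dose of each drug. Genes near the floor, such as LAMA1, COL6A1, ITGB3 and ITGA9 under Sal at 72 h, and TNC under Das at 72 h, have changes whose size the counts bound only loosely. Counts of reads do not give protein levels.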
